A study of Caenorhabditis elegans with 6 samples.

Results

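The genes encoding subunits of the proteasome were read in RNA from sorted touch neurons of C. elegans. All genes named pas-, pbs-, rpt- or rpn- with a number were taken, 33 of the 46726 genes counted, and each symbol was matched to its WBGene identifier. They comprised 7 alpha subunits of the core particle (pas-), 7 beta subunits (pbs-), 6 ATPases of the regulatory particle (rpt-) and 13 non-ATPase subunits of the regulatory particle (rpn-). The choice was by name alone, so a subunit gene with another name was not taken. The libraries came from mec-8 mutants (mec-8(e398), n = 3) and from wild type (given as N2 in the labels, n = 3), all L4 larvae. MEC-8 is an RNA-binding splicing regulator that touch neurons need for mechanosensation. Both genotypes carried mec-4p::GFP according to the study's methods, and GFP-positive cells were collected after dissociation of whole animals, so each library pooled cells of many worms. The replicates are biological triplicates by the methods.

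The proteasome is the protease that degrades proteins tagged with ubiquitin in the cytosol and nucleus of all eukaryotic cells. Its core particle is a barrel of alpha rings, which gate the entrance, and beta rings, in which PBS-1, PBS-2 and PBS-5 carry the active sites. The regulatory particle binds the tagged protein, removes its ubiquitin and threads it through the ring of RPT ATPases into the core. In C. elegans an isoform of the transcription factor SKN-1 raises the transcription of subunit genes when proteasome activity is low, and neurons depend on the complex for protein turnover at synapses and in axons.

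Reads on genes totalled 22705762 to 33094142 in the mec-8 libraries and 15334872 to 27882591 in the wild-type libraries. The unit of level is CPM (counts of the gene divided by the library total of gene counts and scaled in the same way in each library). The order of the members by level is given as CPM per kilobase of exon. Percentiles among all genes used CPM not divided by length. Values of log2 CPM, used for spread and median abundance, came from edgeR with library totals scaled by TMM factors of 0.78 to 1.31. They were not divided by length either. A floor of 3 counts, the upper limit that a count of 0 allows, corresponded to 0.0907 to 0.132 CPM in mec-8 libraries and 0.108 to 0.196 CPM in wild-type libraries. Wild-type replicate 1 stood apart, with 11.1% of its unique reads on more than 1 gene, against 2.62% to 3.04% in the other libraries, and with 70024247 alignments set aside as not unique, against 1922629 to 11988379. All 8 touch neuron markers read (mec-3, mec-4, mec-7, mec-10, mec-12, mec-17, mec-18 and mtd-1) had counts in every library. Their summed share was 1.13%, 0.0994% and 0.144% in mec-8 replicates 1, 2 and 3, and 1.44%, 0.159% and 0.478% in wild-type replicates 1, 2 and 3. Markers of other tissues were present as well. The 4 muscle genes took 0.415% to 3.50% in mec-8 and 0.856% to 8.001% in wild type, the 4 intestinal genes 0.0378% to 0.282% and 0.00258% to 0.0211%, the 4 hypodermal genes 0.00444% to 0.1097% and 0.00486% to 0.1695%, the 4 germline genes 0.0641% to 0.295% and 0.0975% to 0.351%, and the 31 msp genes of sperm 0.250% to 8.19% and 0.00260% to 0.344%. Among these, dpy-7 was at 0 in mec-8 replicate 3, dpy-7, rol-6 and 2 msp genes were at 0 in wild-type replicate 1, and 8 msp genes were at 0 in wild-type replicate 2. In such pooled RNA, fewer cells of a type and less RNA per cell cannot be told apart.

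All 33 genes were detected in every library and passed the filter on low counts in the test between genotypes. Their median lay at the 85.8th, 91.9th and 82.8th percentile of the genes with a count in mec-8 replicates 1, 2 and 3, and at the 94.6th, 88.6th and 87.6th percentile in wild-type replicates 1, 2 and 3. In CPM not divided by length, the proteasome genes were thus among the more abundant genes of each library. The genes with a count numbered 13613 to 19659 in the mec-8 libraries and 13747 to 19218 in the wild-type libraries. Percentiles of different libraries therefore rest on different numbers of genes. Apart from rpn-6.2, the lowest percentile of any member in any library was the 60.8th, and 24 of the 33 members stayed above the 75th percentile in all 6 libraries.

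Of all counts on genes, the 33 genes held 0.261%, 0.461% and 0.206% in mec-8 replicates 1, 2 and 3, and 0.570%, 0.367% and 0.250% in wild-type replicates 1, 2 and 3. The means were 0.309% ± 0.134 (SD, n = 3) in mec-8 mutants and 0.396% ± 0.162 (SD, n = 3) in wild type, and the groups overlapped. The 95% Wilson intervals, which cover counting error only, ran from 0.205% to 0.208% in mec-8 replicate 3 and from 0.458% to 0.463% in mec-8 replicate 2, and from 0.248% to 0.253% in wild-type replicate 3 and from 0.567% to 0.573% in wild-type replicate 1. Wild-type replicate 1 was the highest library for 23 of the 33 genes. Mec-8 replicate 3 was the lowest for 14 genes, wild-type replicate 3 for 11 and mec-8 replicate 1 for 7. Wild-type replicate 1 also held the largest share of touch neuron markers. Mec-8 replicate 1 was next in those markers but held the most sperm RNA of the 6 libraries, and its proteasome share was 0.261%. The part of these markers in the proteasome share was not tested.

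**Figure D1:**
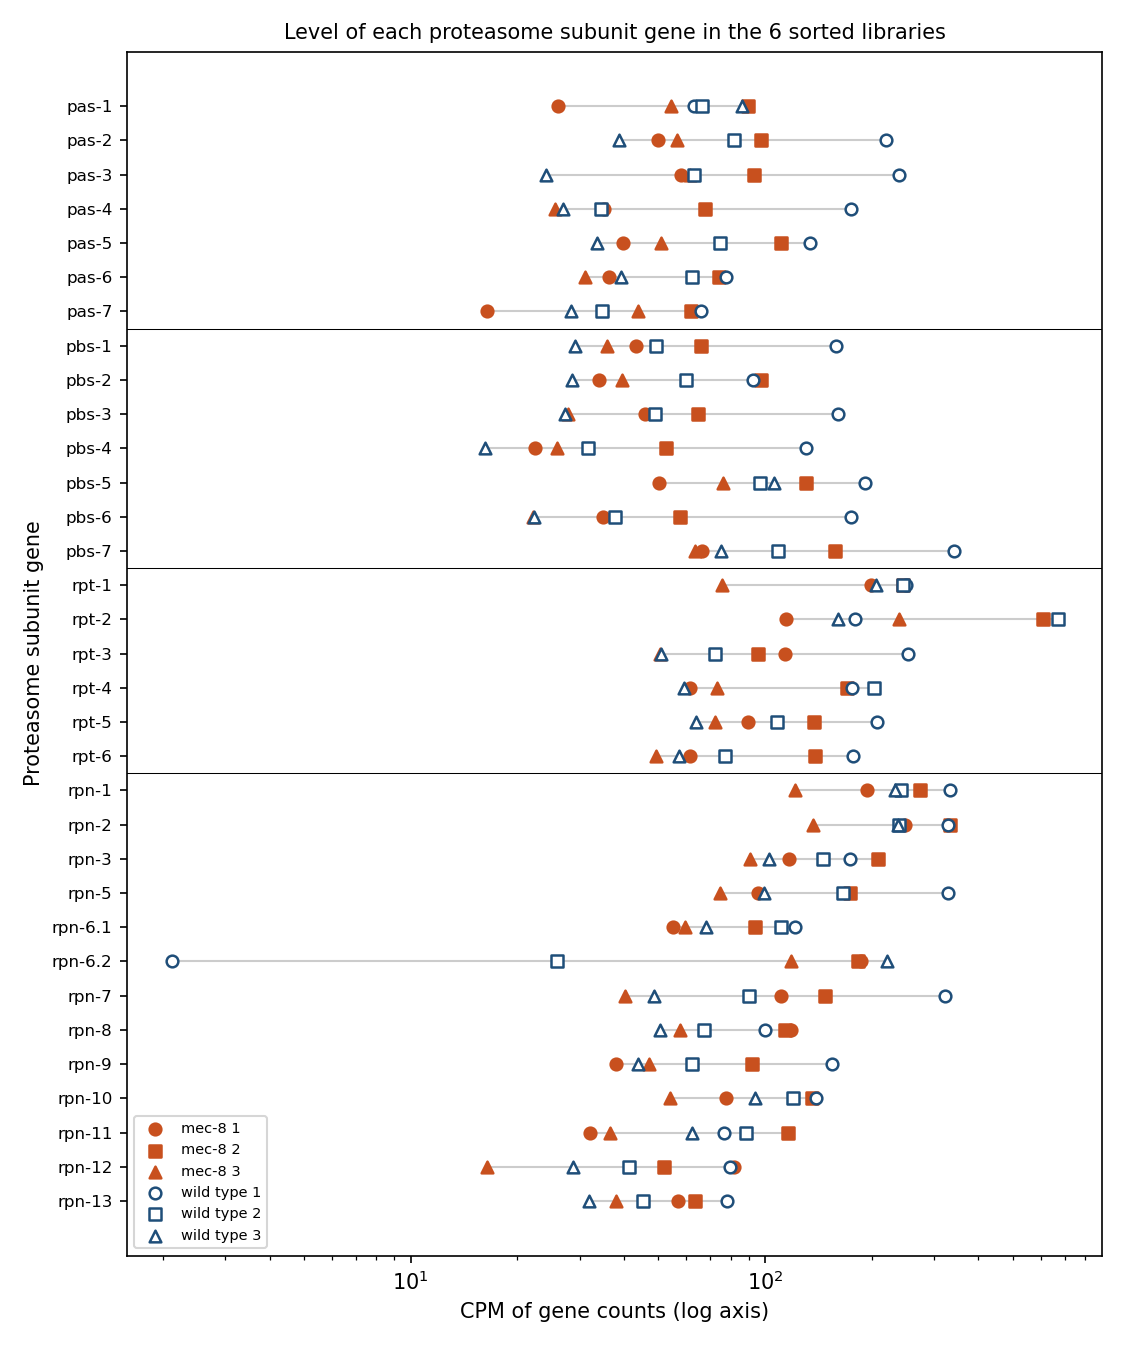
Level of each of the 33 proteasome subunit genes in CPM (log axis), with filled points for the mec-8 libraries, open points for the wild-type libraries and a shape for each replicate number. Most genes span a few-fold range in which the genotypes overlap and wild-type replicate 1 is the highest, while rpn-6.2 runs from 2.12 to 220.7 CPM.

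The alpha subunits form the outer rings of the core particle. Their proteins are 231 to 260 residues long, and their median levels ran from 39.5 CPM per kilobase for pas-4 to 82.2 CPM per kilobase for pas-2. The gene pas-2 (chromosome V, 10770368 to 10771351, plus strand) had 50.01, 97.2 and 56.5 CPM in mec-8 replicates 1, 2 and 3, against 218.9, 82.0 and 38.7 CPM in wild-type replicates 1, 2 and 3. The gene pas-4 (chromosome I, 8727218 to 8728487, minus strand) had 35.2, 67.6 and 25.5 CPM in the mec-8 libraries and 174.4, 34.5 and 26.9 CPM in the wild-type libraries. In both genes wild-type replicate 1 was the highest library, and the other wild-type libraries lay within or below the range of the mec-8 libraries. The same library was the highest for 6 of the 7 alpha genes. The exception, pas-1, was highest in mec-8 replicate 2, with 89.5 CPM, and next in wild-type replicate 3, with 85.9 CPM. The log2 fold changes of mec-8 over wild type were below 0 for all 7 genes, from -0.86 for pas-4 to -0.11 for pas-7, with standard errors (SE) of 0.60 to 0.85 (edgeR's quasi-likelihood test, adjusted p = 1.0 for each). None of these differences passed the test.

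The beta subunits form the inner rings, where proteins are cut. The beta subunit of the caspase-like site, pbs-1 (chromosome IV, 1708814 to 1709745, minus strand), had 43.2, 66.0 and 35.9 CPM in mec-8 replicates 1, 2 and 3, against 158.8, 49.4 and 29.0 CPM in wild-type replicates 1, 2 and 3. The subunit of the trypsin-like site, pbs-2 (chromosome I, 12967216 to 12968280, minus strand), had 34.1, 97.5 and 39.4 CPM in mec-8 and 92.3, 60.0 and 28.6 CPM in wild type. The subunit of the chymotrypsin-like site, pbs-5 (chromosome I, 14719167 to 14720477, minus strand), had 50.3, 130.2 and 76.1 CPM in mec-8 and 192.1, 97.0 and 106.3 CPM in wild type. The genotypes overlapped for all 3 catalytic subunits, and per kilobase pbs-5 was above pbs-1 in 4 of the 6 libraries and above pbs-2 in every library. Their log2 fold changes were -0.65 (SE 0.75), -0.10 (SE 0.65) and -0.68 (SE 0.63) for pbs-1, pbs-2 and pbs-5, with an adjusted p of 1.0 for each in edgeR's quasi-likelihood test.

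The other 4 beta subunits have no active site. The most abundant beta gene per kilobase was pbs-7 (chromosome I, 8695205 to 8696301, minus strand), with a median of 104.6 CPM per kilobase. It had 66.4, 158.0 and 63.6 CPM in mec-8 replicates 1, 2 and 3, against 340.5, 108.5 and 75.2 CPM in wild-type replicates 1, 2 and 3. The least abundant was pbs-4 (chromosome I, 3908747 to 3909701, plus strand), at 35.9 CPM per kilobase, with 22.4, 52.7 and 25.9 CPM in mec-8 and 130.4, 31.6 and 16.2 CPM in wild type. For pbs-6 (chromosome III, 8243122 to 8244092, minus strand) the values were 34.9, 57.8 and 22.2 CPM in mec-8 and 174.4, 37.7 and 22.2 CPM in wild type. In wild-type replicate 1 pbs-7, pbs-4 and pbs-6 stood 2.15-, 2.48- and 3.02-fold above their next highest library, and in the other wild-type libraries none was above its highest mec-8 library. The largest negative difference of all members was that of pbs-6, with a log2 fold change of -0.99 (SE 0.87, adjusted p = 1.0 in edgeR's quasi-likelihood test). It was 0.31 when wild-type replicate 1 was left out.

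The RPT proteins form the ATPase ring that unfolds substrates. The gene rpt-1 (chromosome V, 11980534 to 11982397, minus strand) had the highest median level of all members, 148.9 CPM per kilobase, with 198.8, 244.9 and 75.5 CPM in mec-8 replicates 1, 2 and 3, against 250.0, 245.6 and 205.7 CPM in wild-type replicates 1, 2 and 3. The lowest ATPase gene was rpt-6 (chromosome III, 12370456 to 12372607, plus strand), at 49.3 CPM per kilobase, with 61.4, 138.8 and 49.3 CPM in mec-8 and 176.6, 77.1 and 57.1 CPM in wild type. In rpt-1 mec-8 replicate 3 was the low library, while in rpt-6 wild-type replicate 1 was again the high one. The gene rpt-2 (chromosome V, 6016059 to 6017669, minus strand), chosen after its values were seen, followed another order, with 114.8, 609.3 and 238.5 CPM in mec-8 and 179.0, 671.7 and 161.2 CPM in wild type. Replicate 2 of each genotype thus held more rpt-2 than any other library. In both, rpt-2 had the highest level per kilobase of all members. The annotation places an exon of fos-1, a transcription factor gene, on the other strand over rpt-2. Counts of fos-1, not scaled to depth, were 762, 2669 and 1122 in mec-8 and 127, 5510 and 1355 in wild type. Within each genotype the count was highest in replicate 2. Depth differed, with 30230943 reads on genes in mec-8 replicate 2 and 15334872 in wild-type replicate 3. The part of shared reads was not tested. The log2 fold changes of the 6 ATPase genes ran from -0.50 to -0.09, with standard errors of 0.64 to 0.82 and an adjusted p of 1.0 for each (edgeR's quasi-likelihood test).

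The RPN subunits hold the regulatory particle together and handle ubiquitin. The scaffold and ubiquitin receptor rpn-1 (chromosome IV, 6906420 to 6909913, minus strand) had 194.4, 274.4 and 121.5 CPM in mec-8 replicates 1, 2 and 3, against 331.9, 242.3 and 232.7 CPM in wild-type replicates 1, 2 and 3. The ubiquitin receptor rpn-10 (chromosome I, 10730712 to 10732424, minus strand) had 77.9, 136.2 and 54.04 CPM in mec-8 and 138.9, 120.1 and 94.0 CPM in wild type. The receptor rpn-13 (chromosome III, 6340113 to 6341928, minus strand), which also docks a deubiquitinase, had 56.7, 63.4 and 37.96 CPM in mec-8 and 78.0, 45.2 and 31.8 CPM in wild type. The 3 receptors varied less between libraries than most members, by 2.73-fold for rpn-1, 2.57-fold for rpn-10 and 2.45-fold for rpn-13 between the highest and the lowest library, against a median of 3.998-fold over the 33 genes. This was not particular to the receptors, since the median over the 13 rpn- genes was 2.73-fold. Per kilobase rpn-13 was the lowest of the 33 members, with a median of 34.1 CPM per kilobase, 4.37-fold below rpt-1. Their log2 fold changes were -0.47 (SE 0.63), -0.43 (SE 0.58) and 0.09 (SE 0.62) for rpn-1, rpn-10 and rpn-13, with an adjusted p of 1.0 for each in edgeR's quasi-likelihood test.

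The metalloprotease RPN-11 cuts ubiquitin chains from substrates as they enter, and RPN-8 is its partner. The gene rpn-11 (chromosome II, 4043055 to 4044546, minus strand) had 32.0, 116.4 and 36.5 CPM in mec-8 replicates 1, 2 and 3, against 76.5, 88.3 and 62.3 CPM in wild-type replicates 1, 2 and 3. The gene rpn-8 (chromosome I, 4175319 to 4177271, plus strand) had 118.8, 113.5 and 57.7 CPM in mec-8 and 99.7, 67.4 and 50.6 CPM in wild type. The lid subunit rpn-5 (chromosome II, 4696418 to 4698427, minus strand) had 95.4, 174.2 and 74.6 CPM in mec-8 and 327.3, 166.0 and 99.5 CPM in wild type. The libraries of the genotypes overlapped for all 3. Values of log2 fold change were -0.40 (SE 0.63) for rpn-11, 0.47 (SE 0.62) for rpn-8 and -0.77 (SE 0.66) for rpn-5, each with an adjusted p of 1.0 in edgeR's quasi-likelihood test. With rpn-6.2, rpn-12 and rpn-13, rpn-8 was among the 4 members with a log2 fold change above 0. The lid subunit rpn-12 (chromosome II, 11653124 to 11654192, plus strand) had 82.0, 51.8 and 16.5 CPM in mec-8 and 79.6, 41.4 and 28.8 CPM in wild type, a log2 fold change of 0.12 (SE 0.80, adjusted p = 1.0). Both rpn-8 and rpn-12 were chosen after their values were seen.

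The subunit RPN-6 joins the lid to the core particle, and C. elegans has a pair of genes for it on chromosome III. The gene rpn-6.1 (6959110 to 6962001, minus strand, 1646 bases of exon) is known to protect worms from misfolded proteins when its level is raised. The gene rpn-6.2 (8999817 to 9001999, minus strand, 1557 bases of exon) encodes its paralog. No annotated gene overlaps either of them. The counts of rpn-6.1 were 1817, 2841 and 1346 in mec-8 replicates 1, 2 and 3, against 2810, 3102 and 1043 in wild-type replicates 1, 2 and 3. Scaled to CPM, rpn-6.1 stood at 54.9, 94.0 and 59.3 in mec-8 and 121.3, 111.3 and 68.0 in wild type, the narrowest range of any member, 2.21-fold. The counts of rpn-6.2 were 6194, 5530 and 2694 in mec-8, against 49, 720 and 3385 in wild type. In CPM these were 187.2, 182.9 and 118.6 in mec-8 and 2.12, 25.8 and 220.7 in wild type, a 104-fold range. The gene rpn-6.2 was high in all mec-8 libraries and in wild-type replicate 3, and low in wild-type replicates 1 and 2. It was the only member that varied over more than 10-fold, and the next, pas-3, varied 9.95-fold.

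Of the counts on the pair, rpn-6.2 took 77.3%, 66.1% and 66.7% in mec-8 replicates 1, 2 and 3, and 1.71%, 18.8% and 76.4% in wild-type replicates 1, 2 and 3. By the Wilson method at 95%, counting error left a range of 1.30% to 2.26% for wild-type replicate 1 and of 75.2% to 77.7% for wild-type replicate 3. The wild-type libraries thus spanned nearly the whole range, and wild-type replicate 3 lay among the mec-8 libraries. The mean share was 70.0% ± 6.33 (SD, n = 3) in mec-8 mutants and 32.3% ± 39.2 (SD, n = 3) in wild type, a difference of 37.7 percentage points. It gave p = 0.3 in a two-sided exact permutation test, whose smallest possible p is 0.1 here. This share was chosen after the values were seen. The log2 fold change of rpn-6.2 was 0.70 (SE 1.44, adjusted p = 1.0 in edgeR's quasi-likelihood test). Without wild-type replicate 3 it was 3.72 (adjusted p = 0.468, within a range of 0.468 to 1.0 over the alternatives that gave one). It was 0.11 without wild-type replicate 1 and 0.20 without wild-type replicate 2, so each wild-type library moved it by more than 1.5 times. The 31 msp genes of sperm took 8.19%, 0.250% and 0.401% of the counts in mec-8 and 0.151%, 0.00260% and 0.344% in wild type. In both msp genes and rpn-6.2, all mec-8 libraries and wild-type replicate 3 were above wild-type replicates 1 and 2. The order within each of these sets differed. The part of sperm or germline RNA in the level of rpn-6.2 was not tested. Reads that matched both paralogs equally well would have been set aside in counting.

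**Figure D2:**
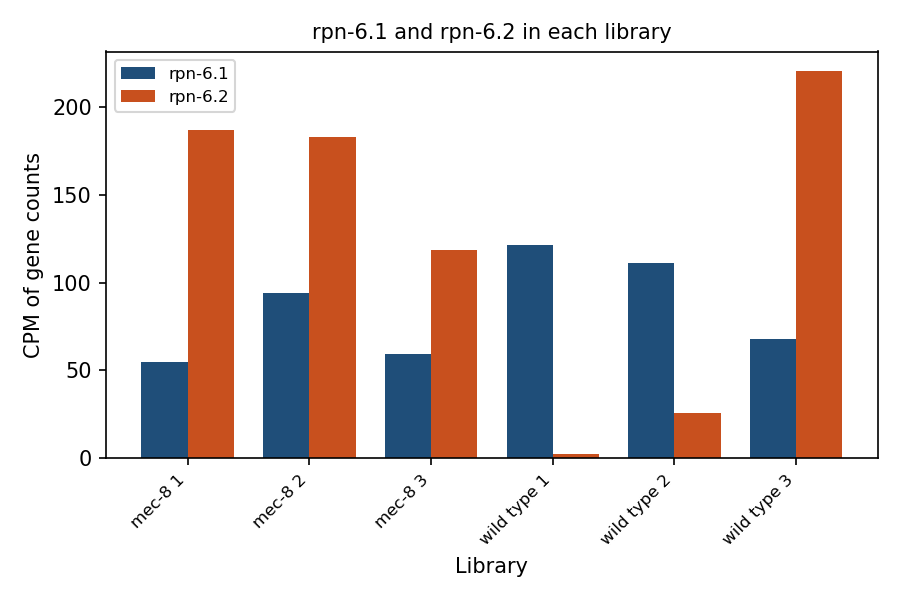
CPM of rpn-6.1 and rpn-6.2 in each library, mec-8 on the left and wild type on the right (bars, 1 library each). The bars of rpn-6.1 lie between 54.9 and 121.3 CPM, while those of rpn-6.2 are high in all mec-8 libraries and in wild-type replicate 3 and lowest in wild-type replicate 1, at 2.12 CPM.

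Between genotypes, 0 of the 33 members had an adjusted p under 0.05 in edgeR's quasi-likelihood test, where 0% of the 14614 genes tested did. At an unadjusted p under 0.05 there were 0 members, where 2.87% of all genes were higher and 0.349% lower in the mutants, and the smallest unadjusted p of a member was 0.277 for pbs-7. DESeq2, which gave no p for 1 member, rpn-6.2, and limma voom also called 0 members, where DESeq2 called 0.278% of the genes to which it gave an adjusted p and voom 0% of all genes. Both had 0 members at an unadjusted p under 0.05, a threshold passed by 4.92% of genes in DESeq2 and 3.07% in voom. The only member to pass it when a library was left out was rpn-6.2, without wild-type replicate 3, where 8.51% of all genes did. For 0 of the 33 members did the mec-8 and wild-type libraries separate without overlap, where 5.5% of all genes were higher and 1.49% lower in every mec-8 library. Log2 fold changes were below 0 for 29 members, or 87.9%, against 49.5% of all genes tested. Their median was -0.45, against 0.01 over all genes, and the medians by group were -0.47 for pas-, -0.72 for pbs-, -0.38 for rpt- and -0.40 for rpn- genes. This lean was not particular to the proteasome. Of the 8 cct- genes of the cytosolic chaperonin 7 were below 0, with a median of -0.38. Of the 76 rps- and rpl- genes of the ribosome 26 were below 0, with a median of 0.15. The standard errors of the members had a median of 0.67, and 5 of the 33 differences were larger than their own standard error. The same count was not made over all genes, so it is not read as a result. The square root of the gene dispersion, the relative spread between libraries beyond counting error, had a median of 0.76 for the members, and 0 members past the threshold does not show that their levels were equal.

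**Figure D3:**
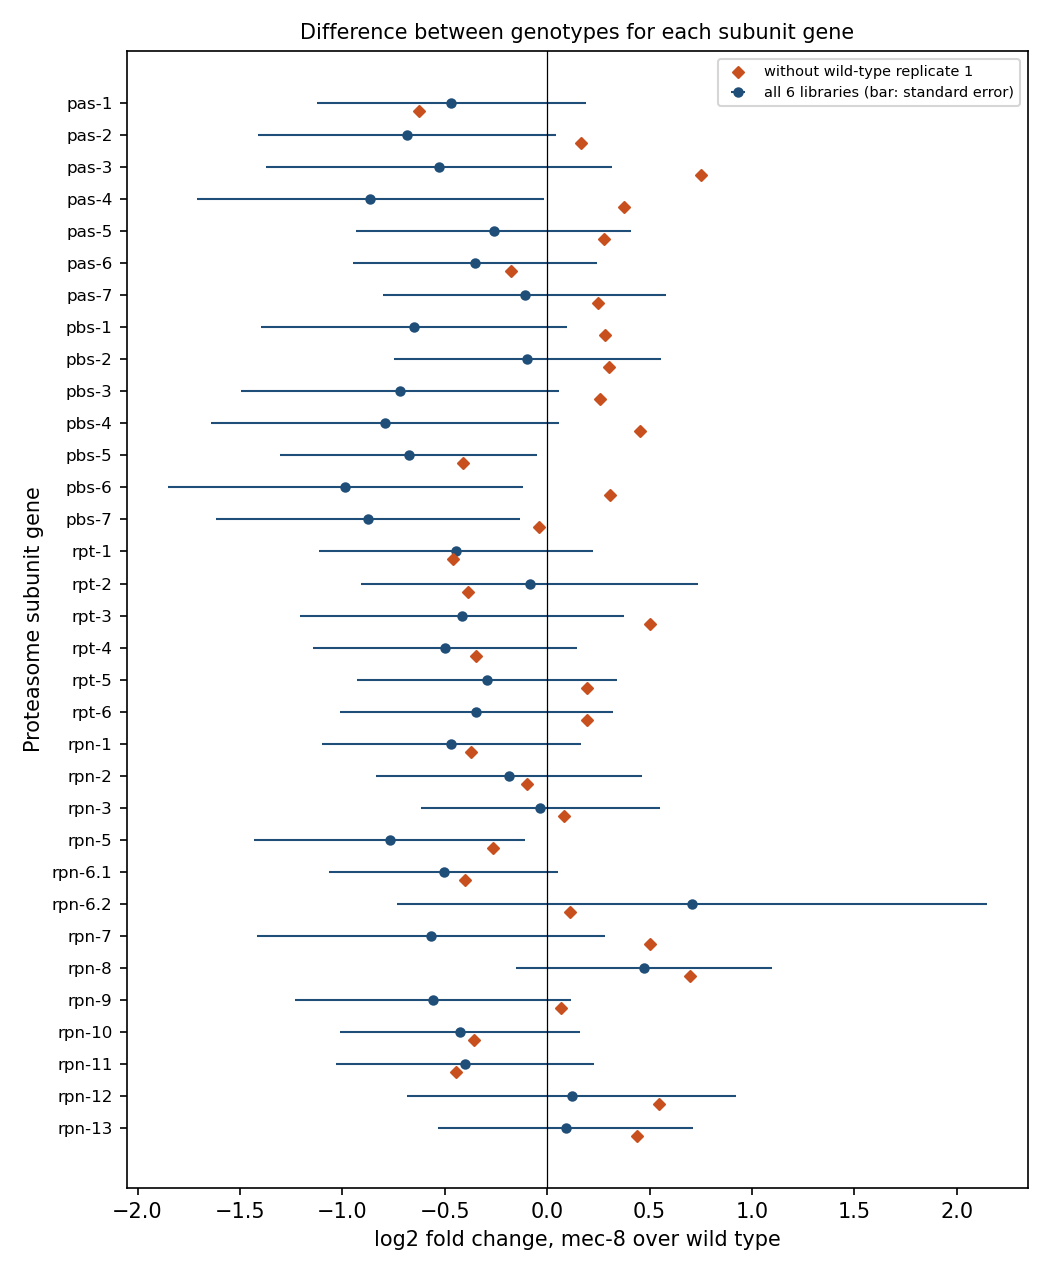
Log2 fold change of mec-8 over wild type for each member from edgeR (circles, bars of 1 standard error) and the value without wild-type replicate 1 (diamonds). With all libraries 29 of 33 circles lie left of 0, and without wild-type replicate 1 only 13 of 33 diamonds do.

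The direction of the members rested on wild-type replicate 1. Without it 13 of the 33 members had a log2 fold change below 0 and the median was 0.16, beside a median of 0.10 over all genes. When any other library was left out, 27 to 31 members were below 0. Limma voom, which gives noisy libraries less weight, put 13 members below 0, with a median of 0.06 beside 0.08 over all genes. A lower level of the proteasome genes as a set in mec-8 mutants thus depended on wild-type replicate 1 and did not appear with limma voom.

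The share of each of the 4 groups of subunits in the summed RNA level per kilobase was compared between genotypes. In each group the genotype means differed by less than the SD between the wild-type libraries. Protein was not read. Of the summed level per kilobase, the alpha genes took 15.5%, 19.3% and 22.9% in mec-8 replicates 1, 2 and 3, and 23.8%, 17.3% and 17.2% in wild-type replicates 1, 2 and 3. The beta genes took 17.6%, 20.1% and 20.3% in mec-8 and 30.5%, 17.7% and 18.6% in wild type. The ATPase genes took 23.4%, 27.9% and 24.5% in mec-8 and 18.6%, 35.0% and 23.1% in wild type. The rpn- genes took 43.4%, 32.8% and 32.3% in mec-8 and 27.1%, 30.0% and 41.1% in wild type. Wild-type replicate 1 was thus richest in core particle genes, above all the beta subunits, and poorest in the ATPases. Wild-type replicate 2 was richest in the ATPases, with rpt-2 its most abundant member. The member of the highest level per kilobase was rpt-1 in mec-8 replicate 1, rpt-2 in mec-8 replicates 2 and 3, pbs-7 in wild-type replicate 1, rpt-2 in wild-type replicate 2 and rpn-6.2 in wild-type replicate 3.

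**Figure D4:**
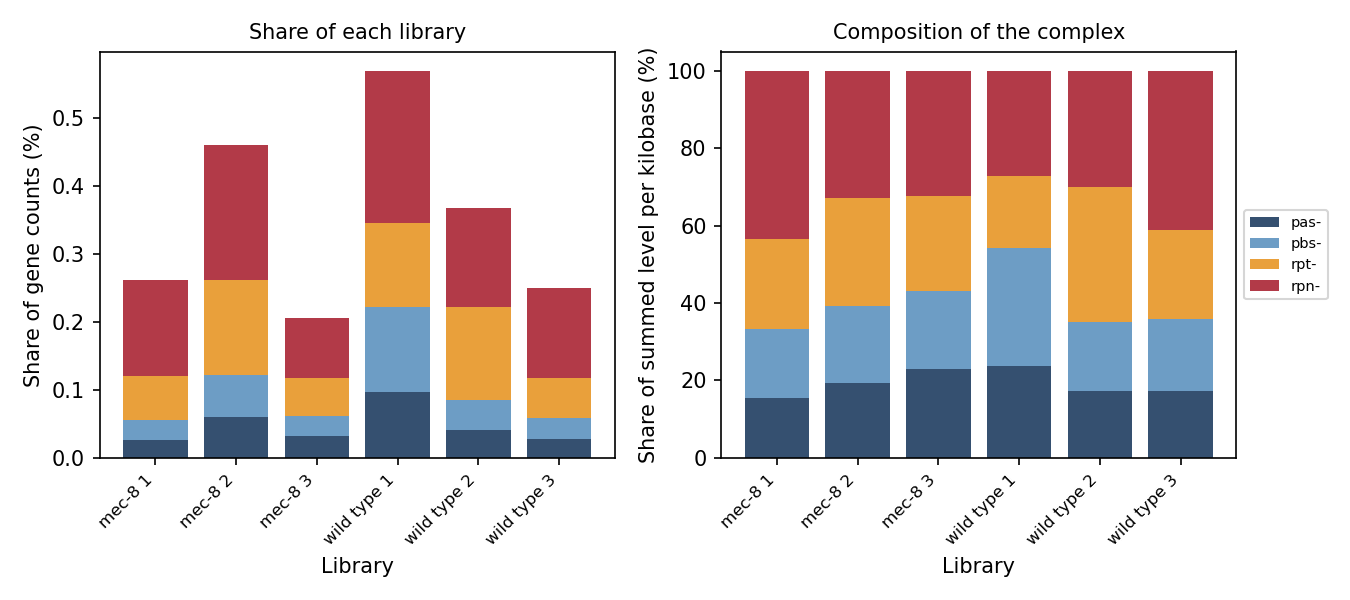
Left, share of the gene counts (%) taken by the pas-, pbs-, rpt- and rpn- genes in each library. Right, share (%) of each group in the summed CPM per kilobase of the 33 genes. The total is highest in wild-type replicate 1, at 0.570%. There the pbs- genes take 30.5% of the summed level per kilobase, against 17.6% to 20.3% in the other libraries.

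The spread of the members between libraries was small beside that of all genes tested. Here log2 CPM was scaled by TMM, as in the edgeR fit. The SD of log2 CPM over the 6 libraries had a median of 0.59 for the 33 members, against 1.60 over all genes tested, 0.50 for the 8 cct- genes of the cytosolic chaperonin and 1.09 for the 76 rps- and rpl- genes of the ribosome. Members were also more abundant than most genes, with a median log2 CPM of 6.42 against 3.72 over all genes, and abundance was not matched in this comparison. After the mean log2 CPM of the members was subtracted in each library, with rpn-6.2 left out, the median SD of the other 32 genes was 0.39, beside 0.59 before it. With rpn-6.2 kept, it was 0.43 beside 0.59. The same step, with no gene left out, gave 0.27 beside 0.78 for the beta genes and 0.35 beside 1.09 for the ribosomal protein genes. It gave 0.54 beside 0.50 for the cct- genes and 1.70 beside 1.60 over all genes tested. The cct- list thus kept its farthest gene, cct-8, with an SD of 2.53 after the step, and the ribosomal list kept rpl-42, with 4.18. Since each list supplied its own mean, these values are a description, with no test. The ATPase gene rpt-5 stayed closest to the mean of the 32 genes, with an SD of 0.12. The farthest of the 32 was rpt-2, with an SD of 1.03.

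Some features of the members were not used in the choice by name. They lie on chromosomes I (10 genes), II (7), III (8), IV (3) and V (5). On chromosome X there were 0 of the 33, where 13.3% of all genes tested lie. The beta proteins are 202 to 284 residues long, the ATPases 406 to 443 and the rpn- proteins 250 to 981. For 22 of the 33 genes no exon of another gene overlapped, for 10 an exon on the other strand did, and for pbs-7 an exon on the same strand. Such overlaps were not counted over all genes. Whether the counting used strand is not given in the sources used here, so reads of these 11 genes could have been shared with their neighbours.

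Genes that act with the proteasome were read in the same fit. In C. elegans, SKN-1A is an isoform of skn-1 that is retrieved from the endoplasmic reticulum with SEL-1, SEL-11 and CDC-48 (genes cdc-48.1 and cdc-48.2) and matured by PNG-1 and DDI-1. Of these 7 genes, 0 passed the test in either direction at an adjusted or unadjusted p under 0.05 (edgeR's quasi-likelihood test). The gene skn-1 had 144.2, 91.9 and 89.8 CPM in mec-8 replicates 1, 2 and 3, against 43.4, 69.4 and 77.8 CPM in wild-type replicates 1, 2 and 3. All mec-8 libraries were above all wild-type libraries for skn-1, a split shown by 5.5% of all genes, and its log2 fold change was 0.81 (SE 0.68, adjusted p = 1.0). It was 0.24 without mec-8 replicate 1 and 0.37 with limma voom. Counts per gene do not tell its isoforms apart. The lowest of the list was png-1, with 0.755, 39.1 and 10.4 CPM in mec-8 and 16.4, 29.0 and 28.4 CPM in wild type, a log2 fold change of -0.82 (SE 1.16, adjusted p = 1.0).

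Of 8 proteins that associate with the proteasome (dss-1, ubh-4, usp-14, aip-1, rad-23, ubql-1, ecps-1 and psmd-9), 0 passed the test, with 6 log2 fold changes below 0 and a median of -0.53. The deubiquitinase gene usp-14 was the lowest, with 42.5, 132.6 and 37.9 CPM in mec-8 replicates 1, 2 and 3, against 245.6, 84.6 and 62.2 CPM in wild type. Its log2 fold change was -0.94 (SE 0.75, adjusted p = 1.0). The adaptor gene aip-1, which arsenite induces, was the highest, with 202.5, 31.4 and 19.4 CPM in mec-8 and 32.3, 41.2 and 56.1 CPM in wild type, and a log2 fold change of 1.09 (SE 1.08, adjusted p = 1.0). Both values rested on 1 library, since that of usp-14 was -0.20 without wild-type replicate 1 and that of aip-1 was -1.11 without mec-8 replicate 1.

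Of 7 genes for ubiquitin and its handling (ubq-1, ubq-2, uba-1, ufd-1, ufd-2, npl-4.1 and npl-4.2), 0 passed the test, and their median log2 fold change was -0.27. The polyubiquitin gene ubq-1 had 1480, 673 and 414 CPM in mec-8 replicates 1, 2 and 3, against 2187, 518 and 588 CPM in wild-type replicates 1, 2 and 3, so replicate 1 was the highest in both genotypes. The CDC-48 cofactors ufd-1 and npl-4.1 bounded the list, with log2 fold changes of 0.21 (SE 0.69) and -0.79 (SE 0.95), each with an adjusted p of 1.0 in edgeR's quasi-likelihood test. The COP9 signalosome, whose architecture resembles the proteasome lid, also had 0 of 6 genes past the test. Its median log2 fold change was -0.20, from -0.53 (SE 0.79) for csn-6 to 0.44 (SE 0.62) for csn-2.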

How the data were processed

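RNA of GFP-positive cells from dissociated L4 animals was sequenced as paired-end reads after polyA selection with the NEBNext Single Cell/Low Input kit. The authors mapped the reads with STAR 2.5.3 to WBcel235 and deposited raw read counts per gene from HTSeq, whose version and strand setting are not given in the sources used here. Lines that name no gene (no feature 0.385% to 3.57% and ambiguous 2.62% to 11.1% of unique reads, and alignments that were not unique) were left out of totals. Symbols, coordinates and exon lengths came from Ensembl release 115 of WBcel235, in which 46364 of 46726 identifiers were found.

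All genes were fitted with edgeR 4.0.16 in R 4.3.3 (quasi-likelihood test, TMM, filterByExpr, genotype alone, 3 libraries each, Benjamini-Hochberg adjustment over 14614 genes, threshold 0.05). Each standard error was derived as the size of the log2 fold change divided by the root of its F statistic. The code was tested on simulated data, where changes put in at a small spread were nearly all recovered and those at the estimated spread of these libraries were not. Alternatives were DESeq2 1.42.0, limma 3.58.1 voom, other scalings and filters, a replicate block and each library left out. Exact permutation tests used python 3.11.15 and intervals scipy 1.17.1. The members and lists were chosen with earlier results of these data known. Values by library are given for the catalytic beta subunits, ubiquitin receptors, rpn-11, the rpn-6 pair, the highest and lowest gene per kilobase in each group and the 5 largest log2 fold changes, 17 genes in all, and for rpt-2, rpn-8 and rpn-12, added afterwards. Of the pathway lists, genes past an unadjusted p of 0.05 and the extremes of each list were named. The polyubiquitin gene ubq-1, and single values of pas-1, pas-3, pas-7 and rpt-5, were added after the values were seen. Sequences were not used here.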

Additional observations from a re-analysis of the deposited data

How the results depend on the processing

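No member passed the adjusted threshold under any alternative run, with no p for rpn-6.2 in DESeq2, and 0 to 1 did so at an unadjusted p under 0.05 when a library was left out, the 1 being rpn-6.2 without wild-type replicate 3, where 8.51% of all genes did. DESeq2 called 44 genes in all, 31 of them higher in mec-8, against 0 in edgeR, where 470 genes had an unadjusted p under 0.05. The DESeq2 fit held 24600 genes rather than 14614, so tool and gene set changed together. The median log2 fold change of all genes was -0.18 in that fit, -0.0685 in edgeR with no filter on the same number of genes and -0.11 with upper-quartile scaling. The number of members with a log2 fold change above 0 was 4 in the main fit, 2 with upper-quartile normalization, 20 with limma voom and 2 to 20 when a library was left out. The median over the members was 0.0555 with limma voom and -0.66 to 0.16 when a library was left out. With voom 16 of the 33 members changed sign. Of the genes whose values are given, the log2 fold changes of pas-2 (0.0591), pas-4 (0.12), pbs-1 (0.0739), pbs-2 (0.31), pbs-4 (0.25), pbs-6 (0.0372), rpt-2 (0.12), rpt-6 (0.0831), aip-1 (-0.31) and npl-4.1 (0.25) did so. With upper-quartile normalization rpn-12 (-0.11) and rpn-13 (-0.0861) did. Leaving out 1 library changed the sign of 21 of the 33 members at least once. Of the genes whose values are given, the ranges crossed 0 for pas-2 (-1.07 to 0.16), pas-4 (-1.24 to 0.37), pbs-1 (-0.9997 to 0.28), pbs-2 (-0.52 to 0.30), pbs-4 (-1.23 to 0.45), pbs-6 (-1.39 to 0.31), rpt-2 (-0.78 to 0.65), rpt-6 (-0.69 to 0.19), rpn-8 (-0.0796 to 0.69), rpn-12 (-0.91 to 0.55), rpn-13 (-0.31 to 0.44), aip-1 (-1.11 to 1.63), npl-4.1 (-1.27 to 0.43) and ufd-1 (-0.26 to 0.59). The cause was not tested.

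Same-numbered libraries deviated from their genotype means with correlations of 0.06, 0.47 and -0.16 for replicates 1, 2 and 3. Whether the numbers pair the libraries was not tested. With the replicate block 0 members and 0 genes were called, the median over the members was -0.34, 2 members changed sign, among them rpn-12 (-0.11), and the log2 fold change of rpn-6.2 was 2.76 rather than 0.70. The share of counts on the 33 genes was 0.628% rather than 0.570% in wild-type replicate 1 when ribosomal RNA and mitochondrial genome genes were taken out of the total, and moved by less than the spread between replicates in each library. Of the 5 members highest per kilobase, 3 stayed among the 5 highest in CPM not divided by length. The difference in the rpn-6.2 share was 22.4 to 59.7 percentage points when a library was left out and 38.2 per kilobase of exon, both added after the data were seen. Counting error was small for all members other than rpn-6.2 in wild-type replicate 1, so the spread between libraries sets the precision.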
